A study of Homo sapiens with 6 samples.

Results

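The genes described here are the receptors that thrombin and related proteases cleave and the genes that start, brake or finish tissue factor coagulation. They were listed by name as F2R, F2RL1, F2RL2, F2RL3, F3, TFPI, TFPI2, THBD, PROCR and F13A1, and each was read from the brightest probe set that carries its symbol alone. Of these 10 genes, 9 had such a probe set, 1 each, among 18417 genes in all. F2RL1, which encodes the receptor PAR2, had none and is not analysed here. There were 6 Affymetrix HuGene arrays of total RNA, 3 from the MCF10A line without plasmid and 3 from the MCF10A-SNAI1 line. MCF10A cells are human mammary epithelial cells that are immortalized but not transformed. The MCF10A-SNAI1 line was made from MCF10A cells in another laboratory with a plasmid that expresses Flag-tagged SNAI1 from a hybrid of the CMV enhancer and a beta-actin promoter of the chicken, and was selected with puromycin. Both lines were grown in the same mammary epithelial medium with cholera toxin. The untransfected cells came from a different source and are not shown to be the stock that was transfected. Plasmid, selection, stock and culture history therefore cannot be told apart from SNAI1, and the sources used here do not say whether that line is 1 clone. The replicates are described as biological. Each p-value from limma rests on the spread between arrays of a line, drawn toward the spread typical of all probe sets. As a check of the labels, SNAI1 was at 5.76 on average in MCF10A and 10.51 in MCF10A-SNAI1 cells. CDH1, which encodes E-cadherin, was at 9.05 and 5.07.

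Tissue factor, the product of F3, is a membrane protein that binds factor VII and so starts coagulation at the cell surface, and the end product thrombin turns fibrinogen into fibrin. Thrombin also signals, by cutting the outer tail of protease-activated receptors, whose new end then acts as a tethered ligand and switches on G proteins. TFPI blocks the tissue factor complex, while thrombomodulin and the endothelial protein C receptor turn thrombin toward activating the anticoagulant protein C. Epithelial cells and fibroblasts around vessels are known for carrying tissue factor, and protease-activated receptors are known for roles in wound repair and cell migration.

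To show the DNA in front of members that were and were not called, the upstream sequences of 3 members are given from RefSeq (GRCh38.p14). Each is the 250 bases before the annotated gene start, 5′ to 3′ on the gene's own strand. F2RL2 had the highest fold change of the members, TFPI was also called higher, and F3 did not pass the test. Capitals mark matches to CAGGTG, the E-box that Snail proteins bind, to the GC box GGGCGG, and to the AP-1 site TGANTCA, on either strand. The F2RL2 window is chr5:76623404-76623653 on the minus strand, with 40.8% G and C.
F2RL2: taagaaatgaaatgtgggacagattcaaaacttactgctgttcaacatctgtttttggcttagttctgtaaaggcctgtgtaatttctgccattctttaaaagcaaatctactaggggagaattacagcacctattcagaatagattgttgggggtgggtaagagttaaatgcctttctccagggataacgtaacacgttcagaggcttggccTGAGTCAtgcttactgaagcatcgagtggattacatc
The TFPI window is chr2:187554436-187554685 on the minus strand, with 38.4% G and C.
TFPI: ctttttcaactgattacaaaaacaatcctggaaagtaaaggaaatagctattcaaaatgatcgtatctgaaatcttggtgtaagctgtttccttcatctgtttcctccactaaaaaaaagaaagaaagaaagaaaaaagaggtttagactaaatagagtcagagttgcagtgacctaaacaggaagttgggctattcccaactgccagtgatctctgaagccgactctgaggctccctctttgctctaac
The F3 window is chr1:94541760-94542009 on the minus strand, with 78% G and C.
F3: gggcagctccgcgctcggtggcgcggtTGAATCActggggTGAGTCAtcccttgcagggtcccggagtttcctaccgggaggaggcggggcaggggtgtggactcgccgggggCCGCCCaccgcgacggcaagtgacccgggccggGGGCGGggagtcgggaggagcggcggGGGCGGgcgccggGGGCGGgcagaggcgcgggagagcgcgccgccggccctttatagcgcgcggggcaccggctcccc
The F3 window held 4 GC boxes and 2 AP-1 sites. The F2RL2 window held 1 AP-1 site, 31 to 37 bases before the start, and the TFPI window held none of these motifs. Of the 10 members, 8 had an upstream sequence in the tables used here, F2R and THBD being the others. The E-box stood in 3 of these 8, those of F2RL1, F2RL3 and F13A1, against 17.5% of 27305 windows with 1 taken per gene. The GC box stood in 4 of the 8 against 42.3%, and the AP-1 site in 3 against 6.6%, those of F2RL2, F3 and TFPI2. Among the members with an E-box or an AP-1 site, F2RL2 alone was called, and F2RL1 has no value. F2R and THBD were called as well but could not be searched, so motifs and calls cannot be related here. A match is only a run of letters, and no binding was measured here.

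To ask how the receptors, the starter and the brakes of this system differ between the lines, each member was compared with limma at the study's thresholds, a Benjamini-Hochberg adjusted p below 0.01 over all 33297 probe sets and a fold change above 2, here named a call. Of the 9 members measured, 3 were called higher in MCF10A-SNAI1 cells (F2R, F2RL2 and TFPI), 1 was called lower (THBD) and 5 were not called, 44.4% in all. Over all genes, 5.64% were called, 3.1% higher and 2.54% lower. Members and lists were chosen with results of these arrays known, and the study itself lists F2R and TFPI among its changed genes, which makes these counts no independent support. The median log2 fold change, always MCF10A-SNAI1 minus MCF10A, was 0.04 over the members and -0.013 over all genes. RNA per culture was measured, so fewer cells with a transcript and less of it per cell cannot be told apart.

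**Figure D1:**
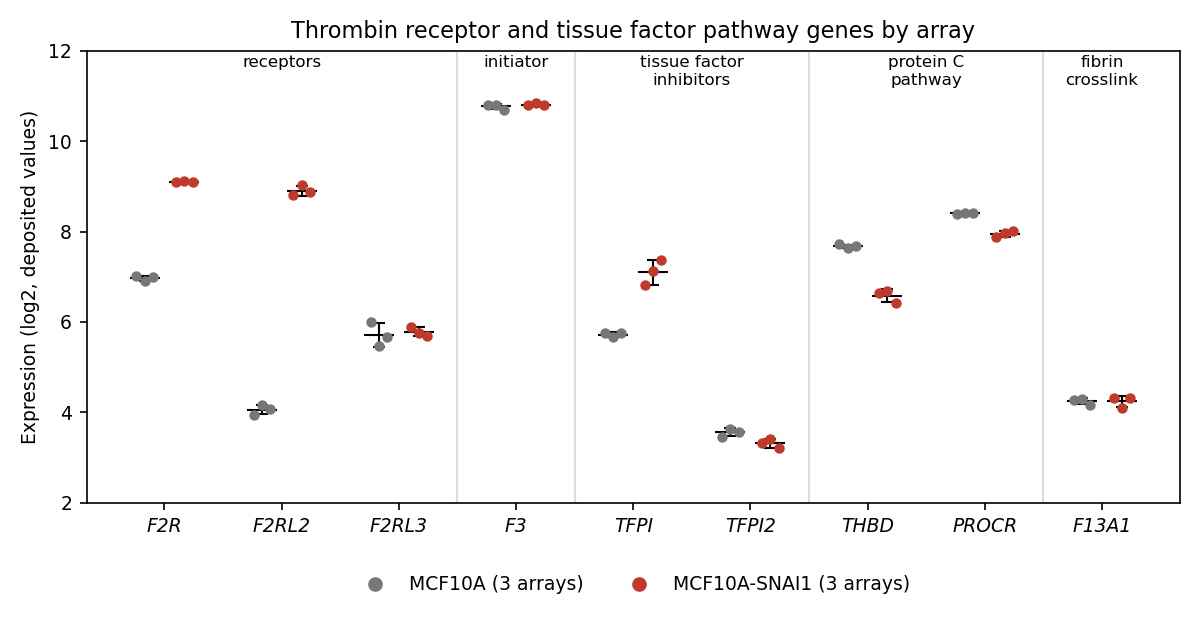
Expression of the 9 measured members as deposited (log2), grouped by role, with a point for each array of MCF10A (grey) and MCF10A-SNAI1 (red) and black bars for the mean and SD of 3 arrays. F2RL2 lies near 4 in MCF10A and near 9 in MCF10A-SNAI1 cells, and the F3 points of the lines overlap close to 10.8.

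Among the receptors, F2RL2 and F2R were higher in MCF10A-SNAI1 cells, and F2RL3 did not pass the test. F2RL2 encodes PAR3, a thrombin receptor known as a cofactor for cleavage of PAR4. On the log2 scale its levels were 3.95, 4.16 and 4.08 in MCF10A replicates 1 to 3 and 8.8, 9.03 and 8.87 in MCF10A-SNAI1 replicates 1 to 3. The lines were thus far apart on every array, and the arrays within a line lay close together. The mean went from 4.06 ± 0.1 to 8.9 ± 0.11 (SD, n = 3 arrays each), a log2 fold change of 4.84 (standard error 0.086, 95% confidence interval 4.63 to 5.04, adjusted p = 1.99e-07 from limma). This is a 28.5-fold difference. In MCF10A the signal stood just above the 20th percentile of all probe sets, 3.92 to 3.96 depending on the array, where a fold is sensitive to how background was subtracted, a step that could not be varied here.

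F2R encodes PAR1, the main thrombin receptor of many cell types. Its levels were 7.02, 6.91 and 6.99 in MCF10A and 9.1, 9.11 and 9.09 in MCF10A-SNAI1 cells. All arrays of the SNAI1 line stood above all arrays of the MCF10A line. F2R rose 4.37-fold, from 6.97 ± 0.057 to 9.1 ± 0.012 (SD, n = 3 arrays each), with a log2 fold change of 2.13 (standard error 0.059, adjusted p = 1.23e-06 from limma). For F2RL3, the gene of PAR4, the levels were 5.99, 5.46 and 5.67 in MCF10A and 5.89, 5.75 and 5.69 in MCF10A-SNAI1 cells. The lines overlapped, and the spread within MCF10A was wider than the distance between the means. The log2 fold change of F2RL3 was 0.07, with a 95% confidence interval from -0.25 to 0.4 (adjusted p = 0.801 from limma). With 3 arrays per line, a true change anywhere within this interval remains possible.

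F2RL2, F2R and F2RL1 are next to each other in the RefSeq order of protein-coding genes on chromosome 5 (GRCh38.p14), and F2RL2 lies within the span of IQGAP2, a scaffold protein gene on the opposite strand. The genes on either side were therefore read in the same fit. Of the 4 protein-coding genes before the receptors and the 4 after them, all 8 were measured and none was called or had an adjusted p below 0.01. Their log2 fold changes ran from -0.18 for the centriole gene POC5 to 0.08 for CRHBP, and the lowest adjusted p was 0.108 from limma. IQGAP2, which surrounds F2RL2, was at 3.47, 3.62 and 3.46 in MCF10A and 3.44, 3.55 and 3.65 in MCF10A-SNAI1 cells. All 6 of these values were under the 20th percentile of their array, so a difference in IQGAP2 could have gone unseen. ANKDD1B, at the 24.4th and 25.5th percentile in the lines, and S100Z and SV2C, between the 30.4th and 32.8th, were also dim, whereas POC5, AGGF1 and ZBED3 were brighter than the array median in both lines. F2RL1 has no value here.

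**Figure D2:**
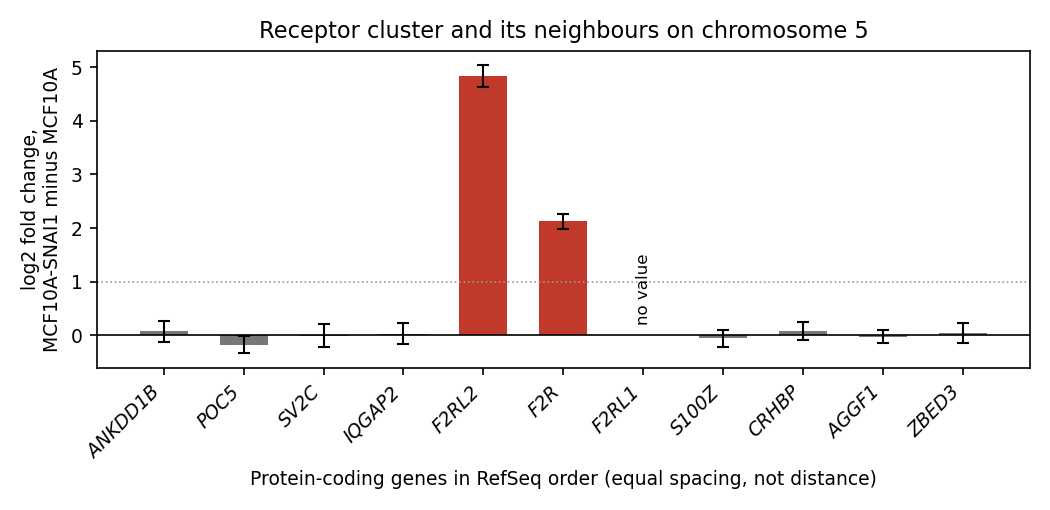
Log2 fold change (MCF10A-SNAI1 minus MCF10A) of the protein-coding genes around the receptor cluster on chromosome 5, in RefSeq order at equal spacing, with bars for the limma estimate, black lines for its 95% confidence interval and a dotted line at the fold threshold. F2RL2 stands at 4.84 and F2R at 2.13 (red, called higher), and the 8 flanking genes (grey) lie between -0.18 and 0.08.

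The starter of the cascade did not pass the test. F3 was at 10.79, 10.81 and 10.7 in MCF10A and at 10.79, 10.85 and 10.79 in MCF10A-SNAI1 cells. These arrays overlapped, and the probe set was far from the dim end of the scale, at the 95.4th percentile of an MCF10A array and the 95.6th of an MCF10A-SNAI1 array on average. The log2 fold change was 0.04 with a 95% confidence interval from -0.11 to 0.19 (standard error 0.062, adjusted p = 0.743 from limma), and this whole interval lay under the fold threshold.

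Of the tissue factor pathway inhibitors, TFPI rose and TFPI2 did not pass the thresholds. TFPI encodes the inhibitor of the tissue factor and factor VII complex. Its levels were 5.75, 5.67 and 5.76 in MCF10A, and 6.82, 7.12 and 7.37 in MCF10A-SNAI1 cells. The SNAI1 line was higher on every array and had the widest spread of any member in that line. TFPI went from 5.72 ± 0.05 to 7.1 ± 0.28 (SD, n = 3 arrays each), 2.6-fold higher (log2 fold change 1.38, standard error 0.13, 95% confidence interval 1.06 to 1.69, adjusted p = 0.000356 from limma). With the methods' t-test the adjusted p of TFPI was 0.0102, and the call was lost. TFPI2 encodes a related Kunitz inhibitor of serine proteases such as plasmin. Its levels were 3.46, 3.64 and 3.57 in MCF10A and 3.33, 3.4 and 3.2 in MCF10A-SNAI1 cells. The lines did not overlap, but all 6 values were under the 20th percentile of their array. The log2 fold change of TFPI2 was -0.25 (95% confidence interval -0.44 to -0.06, adjusted p = 0.0716 from limma).

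The protein C pathway receptors had lower means in MCF10A-SNAI1 cells, and of them THBD was called. THBD encodes thrombomodulin, which binds thrombin and turns it toward protein C. Its levels were 7.72, 7.64 and 7.67 in MCF10A and 6.63, 6.68 and 6.42 in MCF10A-SNAI1 cells. Every array of the SNAI1 line was below every array of the MCF10A line. THBD fell 2.14-fold, from 7.67 ± 0.037 to 6.58 ± 0.14 (SD, n = 3 arrays each), with a log2 fold change of -1.1 (standard error 0.082, adjusted p = 0.000105 from limma). The 95% confidence interval, -1.29 to -0.91, held the fold threshold. PROCR encodes the endothelial protein C receptor, which presents protein C to thrombomodulin. Its levels were 8.39, 8.41 and 8.41 in MCF10A and 7.87, 7.96 and 8.01 in MCF10A-SNAI1 cells. The lines did not overlap for PROCR either, and its log2 fold change of -0.46 had an adjusted p of 0.00158 from limma but was under 2-fold, so it was not called. In all, 5 of the 9 members had an adjusted p below 0.01 at any fold, against 23.2% of all genes.

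F13A1 encodes the A subunit of factor XIII, the transglutaminase that crosslinks fibrin. It was at 4.28, 4.3 and 4.16 in MCF10A and at 4.31, 4.09 and 4.31 in MCF10A-SNAI1 cells. The lines overlapped, with a log2 fold change of -0.01 (95% confidence interval -0.21 to 0.19, adjusted p = 0.965 from limma), and the signal lay near the 24.4th percentile in both lines, so low expression and background cannot be told apart. Over the members, the arrays of the lines did not overlap for 6 of 9 (F2R, F2RL2, TFPI, TFPI2, THBD and PROCR), against 48.3% of all genes. For each of these an exact two-sided permutation test gave p = 0.1, the smallest that 3 arrays against 3 allow.

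**Figure D3:**
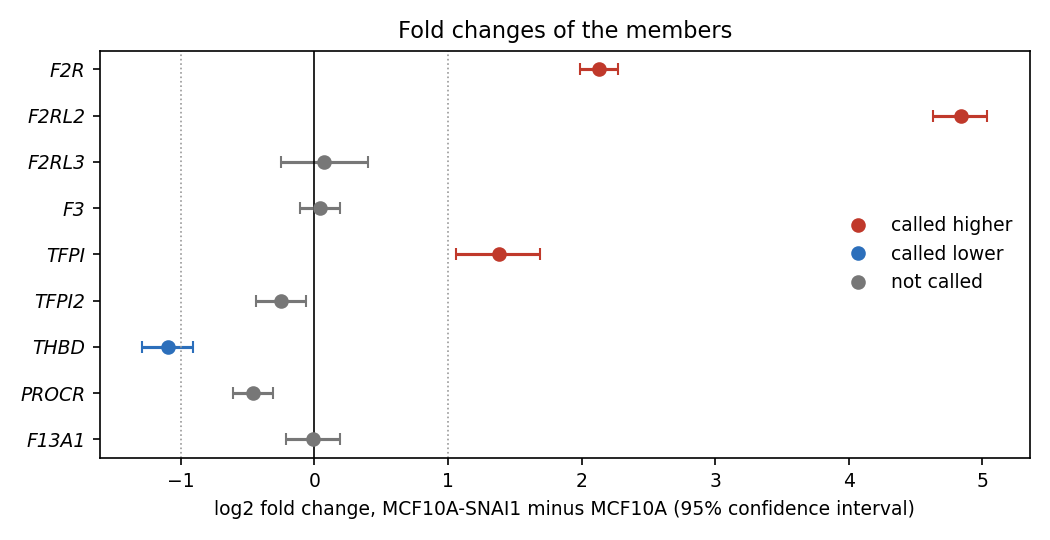
Log2 fold change (MCF10A-SNAI1 minus MCF10A) of each measured member, with points for the limma estimate, lines for its 95% confidence interval and dotted lines at the fold threshold in either direction. F2RL2, F2R and TFPI lie to the right of the threshold with their whole intervals, and the interval of THBD, -1.29 to -0.91, crosses the threshold on the left.

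Thrombomodulin, the protein C receptor, TFPI and factor XIII are known from endothelium, platelets and macrophages, so markers of those cells were read as well. Of 8 endothelial markers such as PECAM1 and CDH5, none was called and none had an adjusted p below 0.01, with log2 fold changes from -0.18 to 0.17. Their mean log2 level per array ran from 4.87 to 4.98 in MCF10A and from 4.92 to 4.98 in MCF10A-SNAI1 cells. Of 8 blood cell, platelet and macrophage markers, none was called, and CD68, a lysosomal protein that other cells also make, lay at 0.99 (log2 fold change, adjusted p = 8.86e-05 from limma). Their mean level ran from 5.18 to 5.22 and from 5.2 to 5.43. The epithelial markers differed between the lines as well. Of 7 listed, 5 were measured, and KRT17 and TP63 had no probe set of their own. All 5 were called lower, the basal genes KRT5, KRT14, LAMB3 and ITGB4 and the general epithelial gene EPCAM. Their mean level was 11.67 to 11.68 in MCF10A and 8.16 to 8.27 in MCF10A-SNAI1 cells. On average KRT5 was at 13.53 in MCF10A and 11.3 in the SNAI1 line, and KRT14 at 12.74 and 7.98. LAMB3 was at 11.6 and 7.02, ITGB4 at 11.37 and 9.27, and EPCAM at 9.14 and 5.43. Of 8 fibroblast markers, 3 were called higher, DCN at 8.26, COL1A1 at 2.57 and LUM at 1.53, and 5 were not called, among them COL1A2 at 0.25, THY1 at 0.08 and FAP at -0.42. The share called was 37.5% of the fibroblast markers, beside the 5.64% of all genes. The mean level of the fibroblast markers ran from 5.49 to 5.54 in MCF10A and from 7.07 to 7.2 in MCF10A-SNAI1 cells. It was carried mainly by DCN, and the median log2 fold change of these markers was 0.34. The part of these shifts in the values of the members was not tested.

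The other genes of the pathway were described by 4 lists of genes. Of 30 coagulation factors, cofactors and their inhibitors, 2 were called higher and none lower, or 6.67% beside the 5.64% of all genes, and the median log2 fold change was 0.0044. PROS1, the gene of the protein C cofactor protein S, rose at 2.15 on its brightest probe set and at 2.52 on the other. F8, the gene of coagulation factor VIII, was at 4.98, 4.71 and 4.85 in MCF10A and 6.25, 6.16 and 6.12 in MCF10A-SNAI1 cells. These arrays did not overlap, and F8 rose at a log2 fold change of 1.33 (adjusted p = 5.16e-05 from limma). Another 3 of the 30 had an adjusted p below 0.01 under 2-fold, beside 3241 of all 18417 genes. At any fold the count was 5 of 30, beside 23.2% of all genes. Of the 3 under 2-fold, MCFD2 and LMAN1 had log2 fold changes of 0.71 and 0.56. Their products form the cargo receptor that carries factors V and VIII out of the endoplasmic reticulum. SERPINE2, a thrombin inhibitor of the cell surface, had one of -0.49. F2, F7 and F10, the genes of prothrombin and of factors VII and X, had log2 fold changes of 0.06, 0.1 and 0 and were not called.

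Of 17 proteases known to cut or act upstream of protease-activated receptors, 15 were measured. Of these, 2 were called lower and none higher, or 13.3% beside the 5.64% of all genes. The list is not limited to proteases of the receptors measured here, and F2RL1 has no value. These were the membrane serine proteases ST14, or matriptase, which fell by 3.9 on the log2 scale, and PRSS8, or prostasin, which acts together with it. PRSS8 was at 7.6, 7.29 and 7.39 in MCF10A and at 5.12, 5.39 and 5.63 in MCF10A-SNAI1 cells, without overlap, and fell by 2.05 (adjusted p = 7.28e-05 from limma). The remaining 13 had log2 fold changes of at most 0.21 in size, among them MMP1, a collagenase that can cut PAR1, at -0.02. MMP1 lay at the 25.9th percentile in MCF10A and the 25.6th in MCF10A-SNAI1 cells. TMPRSS11D was dimmer, at the 9.6th and 6.7th, and so was MMP13, at the 15.4th and 13.5th. For these genes low expression and background cannot be told apart, so a difference could have gone unseen. Others of the 13 were brighter, such as PRTN3 at the 65th and 63.9th percentile. The median of this list was -0.11.

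Of 32 G proteins, effectors and regulators of the receptors, 31 were measured. Of these, 3 were called higher and 2 lower, or 16.1% beside the 5.64% of all genes. RGS2, which speeds the switching off of Gq, was at 6.43, 6.51 and 6.66 in MCF10A and 8.74, 8.66 and 8.54 in MCF10A-SNAI1 cells, and rose at 2.11 (adjusted p = 6.49e-06 from limma). Protein kinase C alpha PRKCA and the phospholipase gene PLCB4 rose at 1.67 and 1.61. The inositol trisphosphate receptor ITPR3 was lower at -1.55 and the G protein subunit GNA15 at -1.38. The main Gq subunits did not pass the test, with GNAQ at 0.24 and GNA11 at 0.03, and neither did GNA12 at -0.01. GNA13, whose product links PAR1 to RHOA, lay at -0.62 (adjusted p = 0.000428 from limma), under 2-fold. In all, 8 of the 31 genes had an adjusted p below 0.01 under 2-fold, 4 in each direction, beside 3241 of all 18417 genes. At any fold the count was 13 of 31, beside 23.2% of all genes. The median of this list was 0.048.

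Of 19 genes that thrombin is known to induce in various cells, 18 were measured. Of these, 2 were called higher and 2 lower, or 22.2% beside the 5.64% of all genes. CCN2 and CCN1, which encode matricellular proteins, were the genes called higher. CCN2 was at 8.96, 8.89 and 8.82 in MCF10A and 11.26, 11.33 and 11.34 in MCF10A-SNAI1 cells, and rose at 2.42 (adjusted p = 1.08e-06 from limma), with CCN1 at 1.17. The EGF receptor ligand HBEGF was lower at -2.29 and the leukocyte adhesion gene ICAM1 at -1.45. None of the inflammatory genes IL6, CCL2, CXCL8, CXCL1 and PTGS2 was called, at log2 fold changes of -0.03, 0.01, -0.65, -0.9 and 0.67. Of these, CXCL1 and PTGS2 had adjusted p = 0.0015 and 0.0074 from limma but were under 2-fold, and IL6 lay near the dim end of the scale in both lines. At any fold, 9 of the 18 genes of this list had an adjusted p below 0.01, beside 23.2% of all genes. Its median was -0.0087, and its called genes lay on both sides of 0. Several called genes of these lists are also in the study's own lists of changed genes, such as PROS1, PRKCA, PLCB4, ITPR3, GNA15 and HBEGF, and these counts are likewise no independent support.

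**Figure D4:**
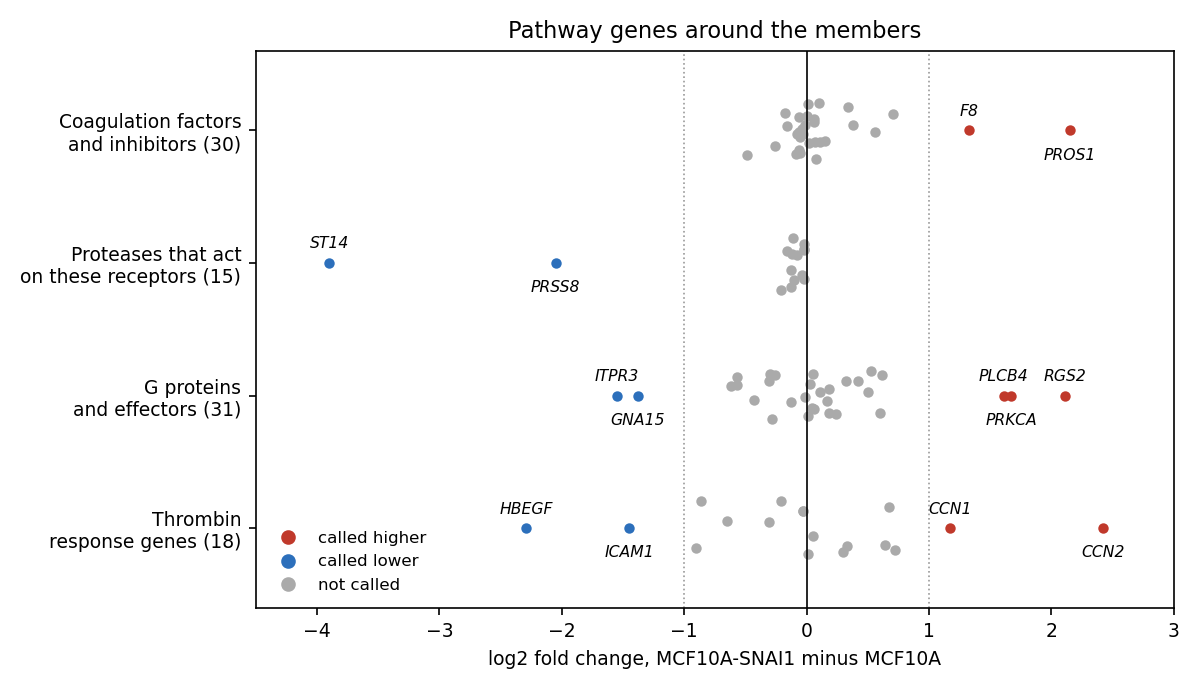
Log2 fold change (MCF10A-SNAI1 minus MCF10A) of each measured gene of the 4 pathway lists, with the number measured in brackets, called genes in red (higher) or blue (lower) and named, others in grey with vertical scatter for legibility only, and dotted lines at the fold threshold. The proteases have 2 called genes, ST14 at -3.9 and PRSS8 at -2.05, and the thrombin response genes have 2 called in each direction.

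The genes whose 6 arrays ran most like those of F2RL2 and of THBD, the members with the highest and lowest fold change, were found by the root mean square distance of the values after subtracting each gene's MCF10A mean. For F2RL2 these were SNAI1 itself at a distance of 0.12, the interleukin 33 receptor gene IL1RL1 at 0.12 and fibrillin FBN1 at 0.21. SNAI1 was at 5.8, 5.73 and 5.77 in MCF10A and 10.5, 10.53 and 10.5 in MCF10A-SNAI1 cells. For THBD they were the phosphatase gene MTMR1 at 0.047, BID at 0.053 and MDFI at 0.054. With 6 arrays in separated lines, this likeness is close to a likeness in the size of the fold change, and for F2RL2 that size rests on an MCF10A signal at the 21.8th percentile, where low expression and background cannot be told apart.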

How the data were processed

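Total RNA of 3 MCF10A and 3 MCF10A-SNAI1 cultures was hybridized to HuGene 1.0 ST arrays. The authors deposited log2 expression values for 33297 probe sets, normalized between arrays. GC RMA in GeneSpring is named in the article, while GCOS, MAS5 and version 1.1 of Affymetrix Expression Console are named in the submitters' notes, and the sources used here do not settle which made the table. Values were used as deposited, without a filter. Array medians lay between 6.04 and 6.09, and Pearson r across probe sets was 0.995 to 0.996 within a line and 0.977 to 0.978 between lines. The table has no detection calls, and the number of arrays limits the precision.

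Of the probe sets, 19460 had 1 symbol, 1754 had several and 12083 had no name in the annotation used. The lines were compared with limma 3.58.1 in R 4.3.3 (lmFit and eBayes, all arrays, no covariate), and the fit was tested on simulated data. Exact permutation tests used scipy 1.17.1. Genes named were the members, SNAI1 and CDH1, up to 4 called genes per direction of each list and the genes most like 2 members. Flanking genes of the receptors and genes of the lists that were named without a call were added after their values were seen. Members and lists were chosen with earlier results of these data known. Alternatives were quantile normalization, median centring, the replicate block, each array left out, dim filters at the 20th percentile and the median, trended and robust moderation, a plain t-test as in the methods, dropping the fold threshold and averaging probe sets. An alternative for linear values was not run, because the table is on the log2 scale.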

Additional observations from a re-analysis of the deposited data

How the results depend on the processing

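The members called higher and lower, 3 and 1, were the same in number under each alternative except the methods' t-test, which called 2 higher, and no fold threshold, which had 2 lower because PROCR was added. F2RL2 and TFPI lay below the array median in MCF10A and passed the filter above the median only through the MCF10A-SNAI1 arrays, so this filter is no support for either call. Of 122 member fold changes under alternatives, 117 kept their direction and their side of the thresholds. TFPI was past the fold threshold but not the adjusted p in the methods' t-test (log2 fold change 1.38). With each array left out, the log2 fold change of F13A1, not called, ran from -0.051 to 0.066 and was above 0 without MCF10A replicate 1, MCF10A replicate 2 or MCF10A-SNAI1 replicate 2. That of F2RL3, not called, ran from -0.054 to 0.21 and was below 0 without MCF10A replicate 2. Without a fold threshold the called genes were 13 of 31 in the G protein list, 5 of 30 coagulation factors and 9 of 18 thrombin response genes. Of the proteases, 2 of 15 were called by this rule, and over all genes the share was 23.2%. The filter above the median left 1 called coagulation factor, because F8 was removed as dim. With the replicate number as a block, the members called were again 3 higher and 1 lower, and 1028 genes were called in place of 1038. Deviations of same-numbered arrays correlated at 0.115, 0.122 and -0.00618, and array 3 of MCF10A did not correlate best with its own number, so the numbers were not taken to pair the arrays. Signals near the lower end of the scale, as for TFPI2 and F13A1 in both lines and F2RL2 in MCF10A, limit what a fold change can show.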
